A study of Mus musculus with 5 samples.

Results

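The maternal imprint control regions of 8 imprinted loci, named for Peg3, Snrpn, Kcnq1ot1, Mest, Grb10, Airn, Plagl1 and Impact, were measured in mouse sperm by whole-genome bisulfite sequencing. In this assay an unmethylated cytosine is read as T and a methylated one as C. A window of fixed coordinates was taken for each locus in the mouse build mm10 (GRCm38), and the reads of both strands were summed at each CpG with at least 5 listed reads. The windows held 426 of the 13063725 CpGs listed in any library, and 7 of the 8 windows held at least 1 CpG. The DNA came from sperm that swam out of the cauda epididymis, the duct where sperm are stored, of C57BL/6 mice with no treatment or mutant allele named in the labels. There were 2 libraries of mice aged 18 months, called old replicates 1 and 2 here, and 3 libraries of mice aged 2 months, called young replicates 1, 2 and 3. The labels do not give the number of animals behind each library, so a p-value here speaks of the spread among these libraries alone, which may be technical.

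A maternal imprint is a methylation mark set in the growing oocyte on one CpG-rich control region of an imprinted locus. It is kept on the maternal allele after fertilisation, through the early embryo, where the zinc finger protein ZFP57 binds the methylated copies and helps to keep them. The paternal copy arrives from sperm without the mark, so genes such as Peg3, Mest and Plagl1 are expressed from the paternal chromosome. At Kcnq1ot1 and Airn the unmethylated paternal copy is the promoter of a long non-coding RNA that silences neighbouring genes. These regions are for that reason commonly used to judge how pure a sperm preparation is, since somatic cells carry a methylated and an unmethylated copy.

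The sequences below show which CpGs of the promoters inside 5 of the windows the libraries covered, and are credited to RefSeq (GRCm38.p6). Each runs from 250 bases before to 50 bases after an annotated transcription start, 5′ to 3′ on the gene's strand, and capitals mark CpGs that at least 1 library listed. They are Peg3 at chr7:6730370-6730669 (minus strand), Snrpn at chr7:60005150-60005449 (minus strand), Kcnq1ot1 at chr7:143296498-143296797 (minus strand), Mest at chr6:30737800-30738099 (plus strand) and Plagl1 at chr10:13090582-13090881 (plus strand).
Peg3: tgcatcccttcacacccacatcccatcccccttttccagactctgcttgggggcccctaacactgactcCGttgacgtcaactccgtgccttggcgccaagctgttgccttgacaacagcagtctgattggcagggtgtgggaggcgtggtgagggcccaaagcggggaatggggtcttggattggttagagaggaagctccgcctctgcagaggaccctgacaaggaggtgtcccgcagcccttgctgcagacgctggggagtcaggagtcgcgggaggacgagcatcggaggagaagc
Snrpn: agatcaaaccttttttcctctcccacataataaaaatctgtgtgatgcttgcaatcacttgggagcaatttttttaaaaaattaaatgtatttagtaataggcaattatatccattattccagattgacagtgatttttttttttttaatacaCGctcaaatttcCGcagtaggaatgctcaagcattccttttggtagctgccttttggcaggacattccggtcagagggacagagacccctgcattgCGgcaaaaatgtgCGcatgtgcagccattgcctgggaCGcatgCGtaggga
Kcnq1ot1: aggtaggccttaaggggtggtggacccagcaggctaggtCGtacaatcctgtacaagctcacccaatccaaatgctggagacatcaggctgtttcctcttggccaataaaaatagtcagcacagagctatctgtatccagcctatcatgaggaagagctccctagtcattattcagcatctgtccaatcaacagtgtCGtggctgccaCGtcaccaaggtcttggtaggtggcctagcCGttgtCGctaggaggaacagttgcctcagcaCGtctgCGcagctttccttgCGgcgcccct
Mest: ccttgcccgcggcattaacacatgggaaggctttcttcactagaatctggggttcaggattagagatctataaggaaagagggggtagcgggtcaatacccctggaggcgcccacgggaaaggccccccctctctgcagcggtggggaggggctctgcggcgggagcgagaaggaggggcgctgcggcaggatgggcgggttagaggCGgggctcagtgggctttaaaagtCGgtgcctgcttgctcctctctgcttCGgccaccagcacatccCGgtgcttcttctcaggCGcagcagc
Plagl1: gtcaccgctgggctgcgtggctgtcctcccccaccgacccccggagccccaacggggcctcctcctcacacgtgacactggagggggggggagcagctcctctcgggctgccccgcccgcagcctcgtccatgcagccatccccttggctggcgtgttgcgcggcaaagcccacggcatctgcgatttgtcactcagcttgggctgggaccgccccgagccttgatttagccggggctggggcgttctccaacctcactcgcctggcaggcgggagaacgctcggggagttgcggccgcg
Coverage of these promoters was uneven. Of the CpGs, 8 of 9 were listed at Kcnq1ot1, 6 of 7 at Snrpn, 5 of 17 at Mest, 1 of 13 at Peg3 and 0 of 26 at Plagl1. Over all libraries, 33.3% of 75 reads were methylated at the Kcnq1ot1 promoter, 44.4% of 54 reads at the Mest promoter and 7.50% of 40 reads at the Snrpn promoter. The Peg3 promoter had 1 listed CpG with 5 reads, in old replicate 1. The median promoter in the table had 7 CpGs, so the Plagl1 promoter was CpG-rich and none of its CpGs reached the list in any library.

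The letters TGCCGC, which ZFP57 binds when methylated, were searched on both strands of the same promoters. They were found at 2 places in the Mest promoter, at 1 in that of Snrpn and at 1 in that of Plagl1, and were not found in those of Peg3, Kcnq1ot1 and Airn. Of all 32851 promoters in the table, 11.6% held them. The letters GCCAT, the core of the motif of the zinc finger protein YY1, were found at 1 place each in the promoters of Snrpn, Plagl1 and Airn, and in 40.5% of all promoters. These matches describe the letters in windows of 300 bases and do not show binding.

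Coverage set what could be measured in the windows. Listed reads over all CpG cytosines summed to 90716510 and 90640296 in the old libraries and to 84117315, 67774094 and 97769462 in the young ones. The windows held 246 and 245 CpGs in old replicates 1 and 2, against 187, 131 and 174 CpGs in young replicates 1, 2 and 3. Outside the Grb10 window the mean was 5.97 and 6.89 reads per listed CpG in the old libraries, against 6.26, 5.80 and 8.49 in the young ones. Over the whole genome that mean was 11.6 to 14.1 reads, but the median was 7 reads in every library. Outside Grb10 the medians by window and library were 5 to 14 reads. Over the whole genome, 26.2% to 30.6% of the CpGs listed in a library rested on exactly 5 reads. Of the 560 values of single CpGs outside Grb10, 48.8% rested on exactly 5 reads, the lowest coverage in the files, and 10.2% on 10 reads or more. The old libraries listed more CpGs outside Grb10, with 157 and 158, against 101, 59 and 85 in the young ones, and whether this moved a level was not tested.

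**Figure D1:**
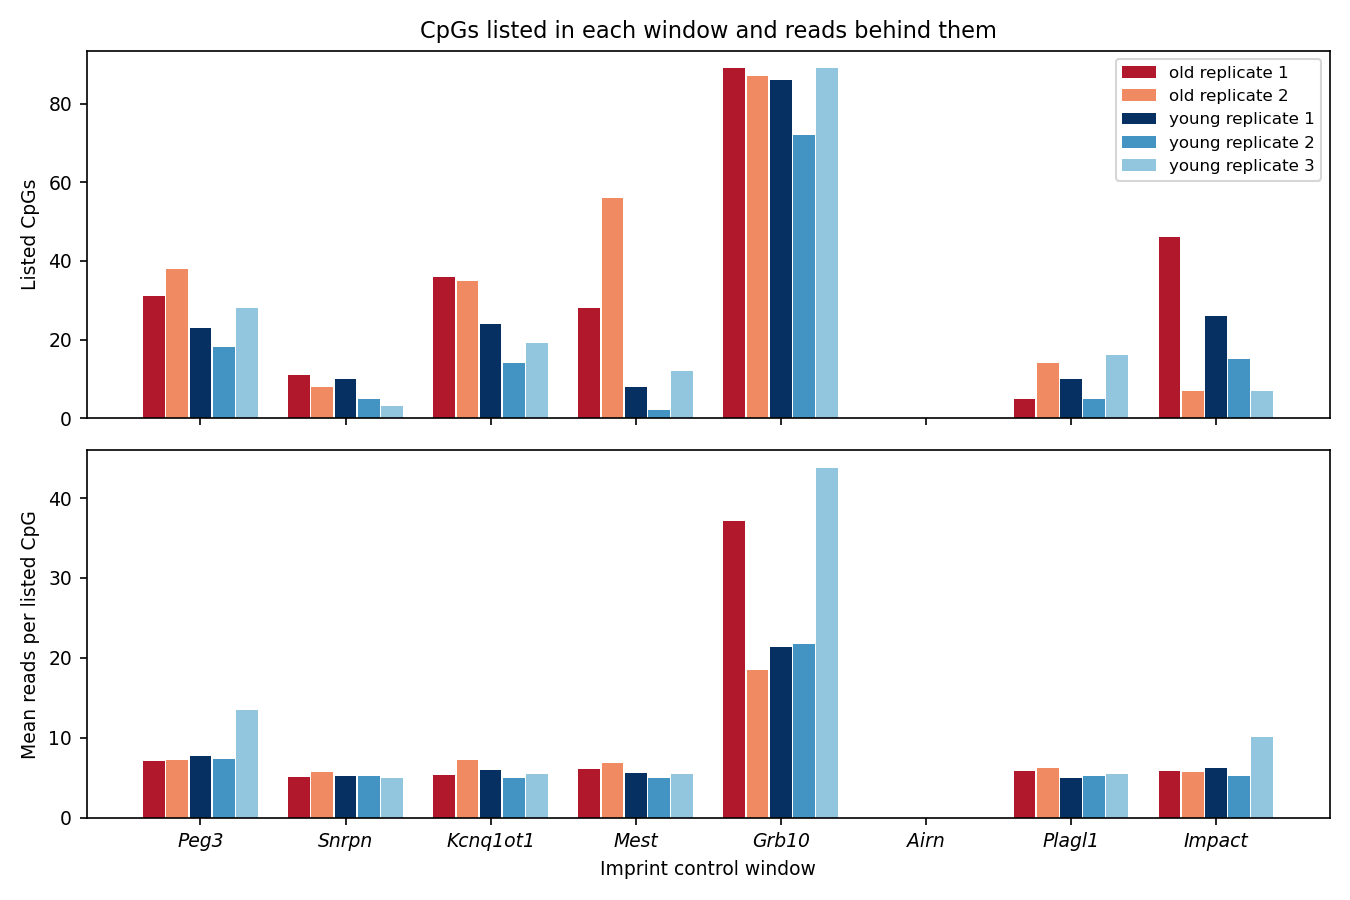
CpGs listed in each window (upper panel) and mean reads per listed CpG (lower panel), one bar per library, with old libraries left of young ones. The Grb10 window stood apart with 72 to 89 CpGs and 18.5 to 43.8 reads per CpG, and the Airn window had no listed CpG.

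In 6 of the 7 measured windows the level was low to intermediate, and lower than around the window. Pooled over the 5 libraries, 12.3% of reads were methylated at Snrpn, 21.0% at Impact, 21.3% at Kcnq1ot1, 22.1% at Plagl1, 35.2% at Mest and 38.9% at Peg3, against 91.7% at Grb10. The lowest library at Grb10, at 82.5%, lay above the highest library of any other window, at 45.7%. Among the other 6 windows the ranges over libraries of each pair of neighbours in this order overlapped. The percent of methylated reads over chromosomes was 86.9 and 86.8 in the old libraries, against 86.4, 86.3 and 86.5 in the young ones. Of the windows and libraries, Kcnq1ot1 in young replicate 1, Snrpn in old replicate 2 and Mest in young replicate 3 were under 10%, at 0.690%, 4.35% and 9.09%. Tiles of 1000 bp with a level under 10%, of which there were 1763, had a median of 2.47% and 2.70% in the old libraries, against 2.27%, 1.92% and 3.13% in the young ones. On mitochondrial DNA 0.469% and 0.435% of reads at CpGs were read as methylated in the old libraries, against 0.415%, 0.662% and 0.421% in the young ones.

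**Figure D2:**
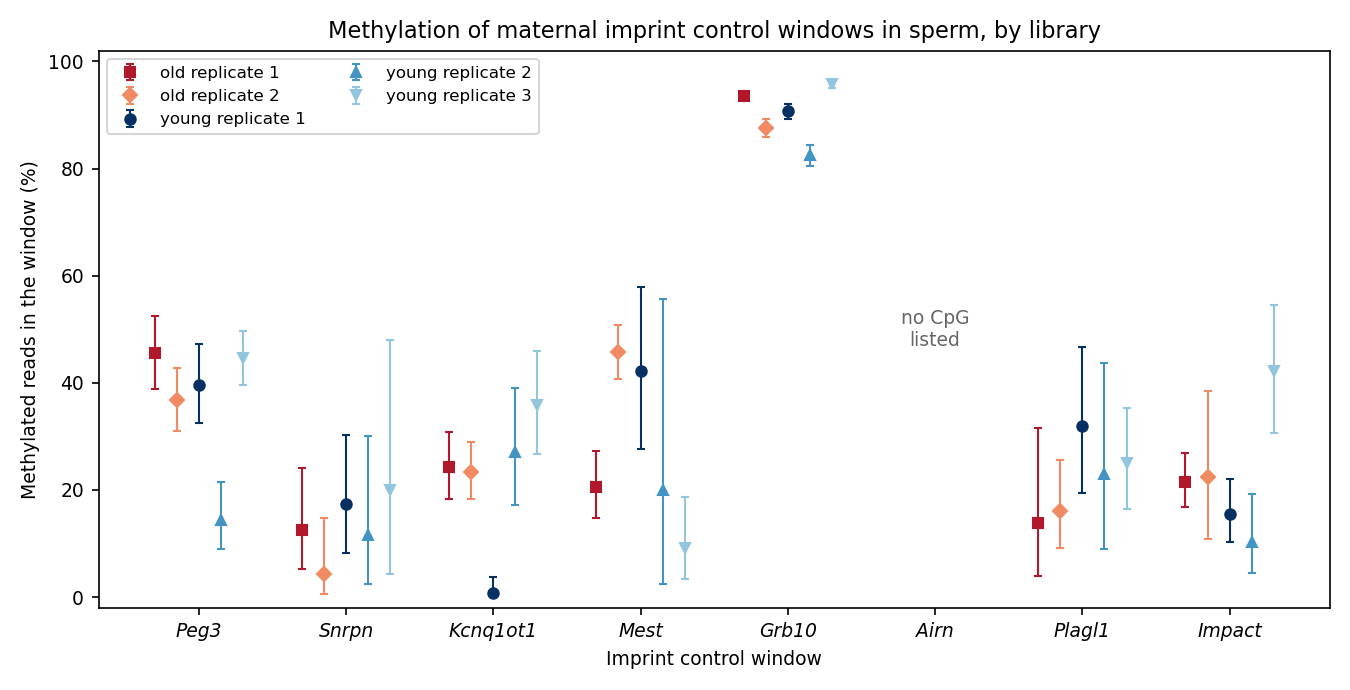
Percent of methylated reads in each window and library (vertical axis), old libraries left of young ones. Bars are exact 95% binomial intervals of counting error. The libraries of Grb10 sit between 82.5% and 95.8%, and all other values sit at 45.7% or lower.

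The mean of the 7 window levels did not differ between ages by more than the spread between libraries. It was 33.1% and 33.8% in old replicates 1 and 2, against 34.0%, 27.0% and 38.9% in young replicates 1, 2 and 3. Both old values lay inside the young range. The group means were 33.4% ± 0.456 in old sperm (SD, n = 2) and 33.3% ± 6.01 in young sperm (SD, n = 3), which are 0.125 points apart (exact permutation test, two-sided, over 10 regroupings, p = 1, smallest possible 0.1). Without the Grb10 window the means were 23.9% in both groups. Without young replicate 2, the lowest library, the difference was -3.04 points, and without old replicate 2 it was -0.198 points.

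The same held in a fit across the genome. Methylated and unmethylated reads were compared, old against young, in 392712 tiles of 1000 bp with at least 3 listed CpGs and 20 reads in every library, together with the windows. A moderated quasi-binomial model was used, with Benjamini-Hochberg adjustment over all tiles and windows. Tiles were called at an adjusted p below 0.05 where the groups were also 10 points or more apart. The model called 0 tiles, which is 0% of those tested, and limma also called 0. Of the 392712 tiles, 14513 (3.70%) had an unadjusted p under 0.05 in the quasi-binomial model and 16548 in limma. Of the 8 windows, 5 passed the same minimum of CpGs and reads (Peg3, Kcnq1ot1, Grb10, Plagl1 and Impact), and 0 of them were called. Each of the 5 had an adjusted p of 1. Snrpn and Mest had fewer than 20 reads in at least 1 library, with 15 reads at Snrpn in young replicate 3 and 10 reads at Mest in young replicate 2.

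The Peg3 window (chromosome 7, 6727000 to 6732500) holds the starts of Peg3, a zinc finger gene expressed from the paternal allele, and of Usp29, a ubiquitin protease gene that is read in the other direction. Its level was 45.7% and 36.7% in old replicates 1 and 2, against 39.7%, 14.4% and 44.6% in young replicates 1, 2 and 3. Young replicate 2 was low, with 19 of 132 reads methylated (exact 95% interval 8.89% to 21.6%), and the other 4 libraries lay close together. The 18 CpGs of young replicate 2 fell in 2 stretches, so they are not independent and the interval is too narrow. The group means were 41.2% ± 6.32 in old sperm (n = 2) and 32.9% ± 16.2 in young sperm (n = 3), a difference of 8.31 points (exact permutation p = 0.8; p = 0.606 in the genome-wide quasi-binomial fit). Without young replicate 2 the difference was -0.933 points. At the 8 CpGs between 6730780 and 6731111 that all 5 libraries listed, the levels were 40.6% and 32.4% in old sperm, against 41.7%, 13.3% and 47.6% in young sperm, so young replicate 2 was also low where the libraries covered the same CpGs. These 8 CpGs span 332 bp, with a mean of 7.5 reads per CpG in young replicate 2. Neighbours can share reads, and these reads are part of those of the window. Positions 6730840 and 6730844 had the highest level of these 8, each with 24 of 55 reads methylated over all libraries.

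Within the Peg3 window the pooled level was higher in bins nearer the upper edge, but the libraries behind the bins differed. Pooled over libraries, bins of 500 bp centred 750, 1250, 1750 and 2250 bp above the middle of the window had 22.9%, 37.2%, 47.9% and 55.8% methylated reads. The next bin, which crosses the edge, had 84.0%. Young replicate 2, the low library, had no reads in the bins centred at 1750 and 2250 bp. Single libraries did not all follow the pooled order: old replicate 1 had 72.7% at 1750 bp and 66.7% at 2250 bp, and young replicate 1 had 45% at 1250 bp and 33.3% at 1750 bp. Most reads lay in the bin centred at 1250 bp, where the levels were 42.1% and 31.5% in old sperm, against 45%, 14.2% and 43.3% in young sperm. Of the 2 tiles tested in this window, the one starting at 6731001 had the smaller p (0.436), with 50.5% and 37.5% in old sperm, against 44.3%, 15.5% and 40.9% in young sperm.

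**Figure D3:**
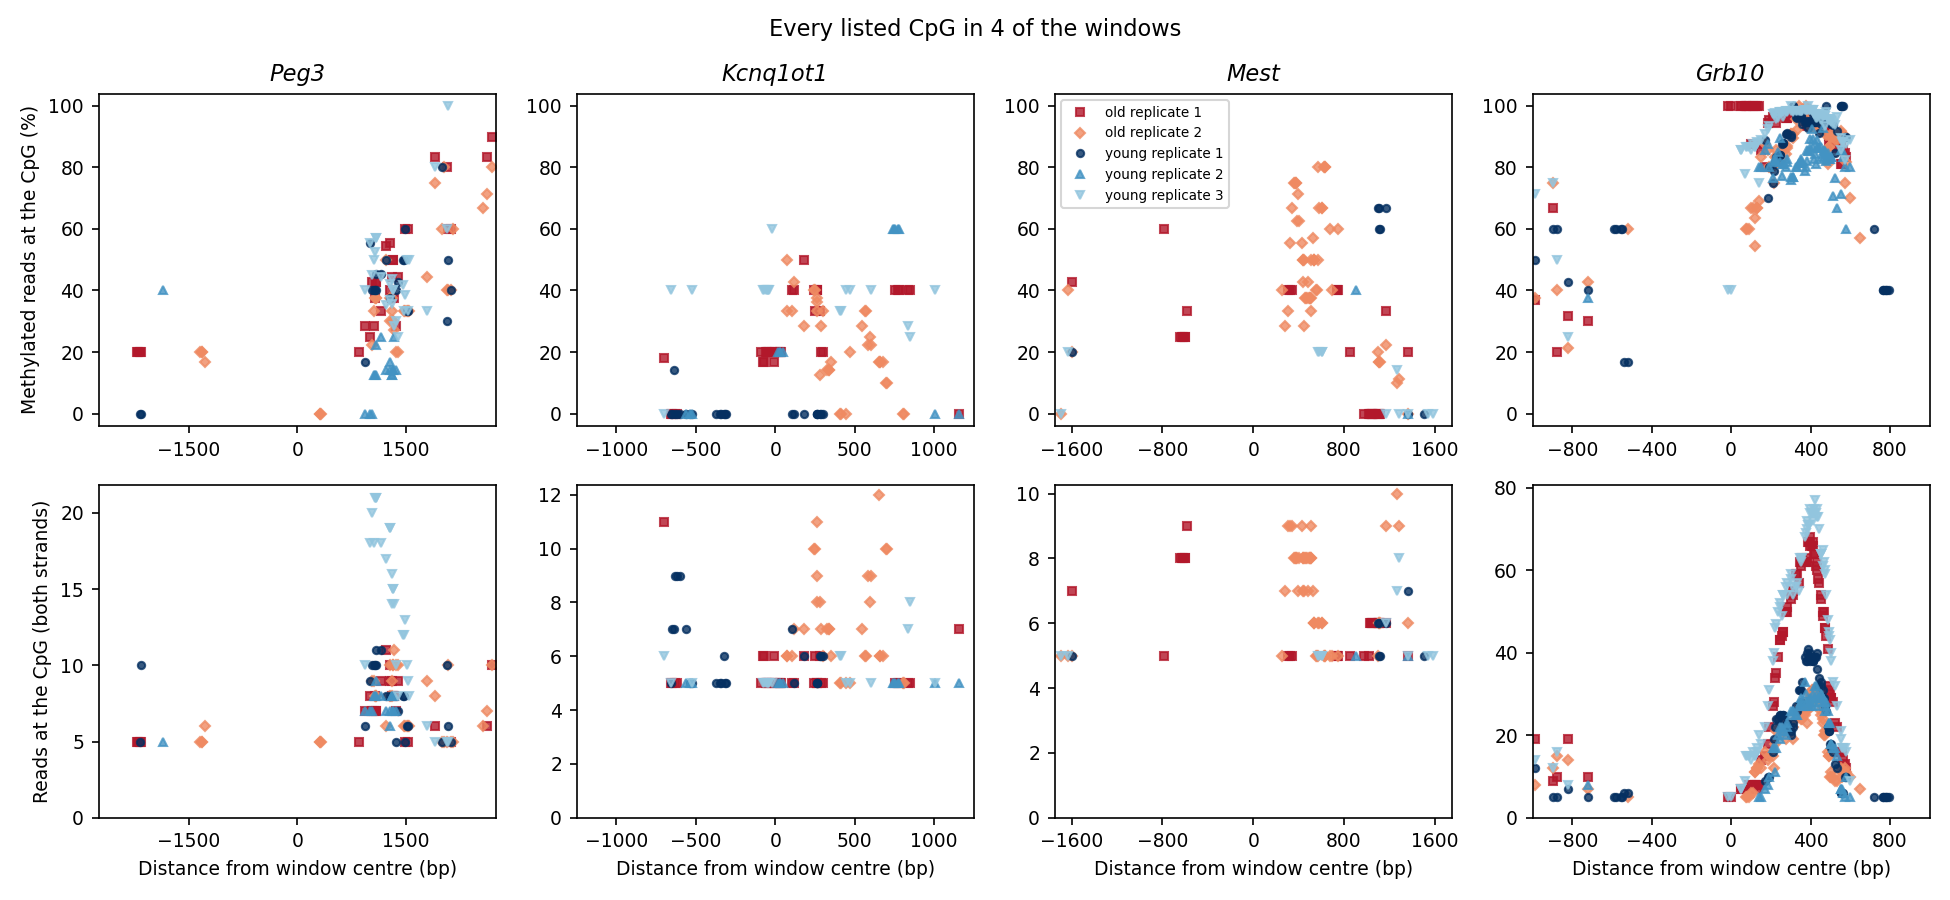
Level (upper row, % methylated reads) and number of reads (lower row) at every listed CpG of 4 windows, by distance from the window's centre in bp, with 1 symbol per library. At Peg3 most high values lie to the right, at Kcnq1ot1 young replicate 1 lies at 0 for 23 of 24 CpGs, and at Grb10 the reads pile up to 77 at a CpG in a narrow stretch with high methylation.

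The Snrpn window (chromosome 7, 60003000 to 60005500) had the lowest level by pooled reads and by the mean of either group, but in each young library at least 1 other window was lower. It holds the start of Snurf, which shares its transcript with Snrpn, a splicing factor gene of the Prader-Willi and Angelman syndrome region, and lies within the non-coding RNA gene Snhg14. The levels were 12.5% and 4.35% in old replicates 1 and 2, against 17.3%, 11.5% and 20% in young replicates 1, 2 and 3. The groups overlapped. The difference of the means, 8.42% ± 5.76 in old sperm (n = 2) and 16.3% ± 4.32 in young sperm (n = 3), was -7.86 points (exact permutation p = 0.3). It was -3.78 points without old replicate 2 and -11.9 points without old replicate 1, and 0.460 points with each stretch of neighbouring CpGs counted once. The libraries had 15 to 56 reads each in 3 to 11 CpGs, and 20 of the 37 values of single CpGs were 0%.

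The Kcnq1ot1 window (chromosome 7, 143294500 to 143297000) covers the start of the antisense RNA Kcnq1ot1 inside the potassium channel gene Kcnq1. Its level was 24.2% and 23.3% in old replicates 1 and 2, against 0.690%, 27.1% and 35.9% in young replicates 1, 2 and 3. Young replicate 1 was far below the other 4 libraries, with 1 of 145 reads methylated (exact 95% interval 0.0175% to 3.78%) and 23 of its 24 CpGs at 0%. Its CpGs fell in 3 stretches, so they are not independent. In the bin of 500 bp just above the middle of the window, which all 5 libraries covered, the levels were 32.1% and 27.0% in old sperm, against 0% of 51 reads, 20% and 36.4% in young sperm. No CpG of the window was listed in all 5 libraries. In this bin the young libraries listed different CpGs from each other, and those of young replicate 1 were also listed in both old libraries. The group means were 23.8% ± 0.641 in old sperm (n = 2) and 21.3% ± 18.3 in young sperm (n = 3), a difference of 2.52 points (exact permutation p = 1). Without young replicate 1 it was -7.76 points. Of the 2 tiles tested in this window, the one starting at 143295001 had the smaller p, 0.169, with 20.6% and 38.5% in old sperm, against 0.893%, 11.4% and 37.5% in young sperm.

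The Mest window (chromosome 6, 30736000 to 30739500) lies within Mest, an alpha/beta hydrolase gene expressed from the paternal allele, and holds the start of its shorter transcripts. Its level was 20.5% and 45.7% in old replicates 1 and 2, against 42.2%, 20% and 9.09% in young replicates 1, 2 and 3. Each group had a high and a low library, and the groups overlapped over most of their range. Means were 33.1% ± 17.9 in old sperm (n = 2) and 23.8% ± 16.9 in young sperm (n = 3), a difference of 9.33 points (exact permutation p = 0.5). Without old replicate 2 it was -3.30 points. The libraries covered different places. Old replicate 2 had 188 and 127 reads in the bins centred 250 and 750 bp above the middle of the window, at 51.6% and 54.3%, while young replicate 1 had none there. In the bin centred 1250 bp above the middle, which all 5 covered, the levels were 4.29% and 14.0% in old sperm, against 51.4%, 0% and 3.85% in young sperm. A single CpG, at position 30739117, was listed in all 5 libraries, with 1 of 28 reads methylated.

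The Grb10 window (chromosome 11, 12025000 to 12027000) lies inside Grb10, an adaptor gene that restrains growth and insulin signalling. It had the highest levels, at 93.6% and 87.6% in old replicates 1 and 2, against 90.7%, 82.5% and 95.8% in young replicates 1, 2 and 3. The old libraries lay within the young range. Means were 90.6% ± 4.24 in old sperm (n = 2) and 89.7% ± 6.69 in young sperm (n = 3), a difference of 0.964 points (exact permutation p = 1). The direction turned without old replicate 1 (-2.04 points), without young replicate 2 (-2.61 points) and with stretches counted once (-7.54 points). Without old replicate 2 or young replicate 3 the difference was 3.96 and 4.02 points. The level of this window goes against the label of the window as a region without methylation in sperm. No start of Grb10 in the promoter table lies in the window, and whether the control region of the locus lies elsewhere in the gene was not tested. The window held 77.9% and 59.7% of the reads of all windows in old sperm, against 74.5%, 82.0% and 84.4% in young sperm.

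The depth of the Grb10 window came from a short stretch. All 5 libraries listed 68 CpGs between 12026172 and 12026579, and their level was 94.8% and 91.2% in old sperm, against 93.3%, 82.8% and 97.0% in young sperm. The deepest CpG had 68 and 31 reads in old replicates 1 and 2, against 41, 33 and 77 reads in young replicates 1, 2 and 3. Position 12026462, the most methylated of them, had 183 of 191 reads methylated. The bin from 12025000 to 12025499 was different, with 35.8% and 44.3% in old sperm, against 47.0%, 37.5% and 58.0% in young sperm, on 8 to 67 reads. Within 1000 bp of the upper end of the Grb10 gene, at 12037428, 8.74% of 103 reads were methylated over the 4 libraries that covered it. Whether reads of near-identical copies elsewhere add to the deep stretch was not tested.

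The Plagl1 window (chromosome 10, 13090000 to 13092500) holds the starts of the zinc finger gene Plagl1 and of the non-coding RNA Hymai. It was the only window whose groups did not overlap, with 13.8% and 16.1% in old replicates 1 and 2, against 32.0%, 23.1% and 25% in young replicates 1, 2 and 3. Both old libraries lay below every young library. The group means were 14.9% ± 1.63 in old sperm (n = 2) and 26.7% ± 4.70 in young sperm (n = 3), a difference of -11.7 points. The exact permutation p was 0.1, the smallest that 10 regroupings allow, and the genome-wide quasi-binomial fit gave p = 0.0557 and an adjusted p of 1. Of all tiles, 17.2% had groups that did not overlap, and 8.34% had them with old sperm lower. The libraries had 26 to 88 reads in 5 to 16 CpGs, and all 5 libraries shared none of these CpGs. In the bin centred 250 bp above the middle of the window, old sperm had 16.7% and 0%, against 19% in young replicate 3, and the other 2 young libraries had no listed CpG there. With each stretch of neighbouring CpGs counted once, the difference was -9.68 points and the exact p was 0.5.

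The Airn window (chromosome 17, 12741000 to 12743000) covers the start of Airn, the antisense RNA of the insulin-like growth factor receptor gene Igf2r, which is expressed from the maternal allele. None of the 5 lists held a CpG in it. Within 10 kb of its centre the lists held 2 and 2 CpGs in the old libraries, against 0, 1 and 2 in the young ones, so nothing is said of its level. The Airn promoter in the table has 3 CpGs in 300 bases.

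The Impact window (chromosome 18, 12972000 to 12975000) lies within Impact, a regulator of the stress kinase GCN2 and expressed from the paternal allele. Its level was 21.6% and 22.5% in old replicates 1 and 2, against 15.5%, 10.3% and 42.3% in young replicates 1, 2 and 3. Young replicate 3 was high, and the old libraries lay between it and the other 2. Means were 22.0% ± 0.664 in old sperm (n = 2) and 22.7% ± 17.2 in young sperm (n = 3), a difference of -0.649 points (exact permutation p = 1). Without young replicate 3 it was 9.14 points. The place measured differed between libraries here too. Young replicate 3 had reads near the upper edge only, with 42.9% of 56 reads in the bin centred 1250 bp above the middle. In the bin centred 750 bp below the middle, old replicate 1 had 25.3% of 79 reads, against 8.33% of 48 reads in young replicate 1 and 6.67% of 15 reads in young replicate 2. Of the 2 CpGs that all 5 libraries listed, the more methylated was at the edge, at position 12975000, with 29 of 48 reads.

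All 6 windows other than Grb10 with listed CpGs formed a dip in methylation. In 30 of 30 combinations of window and library, the level of the window was below that of the sequence within 10 kb of its centre. The libraries share the same windows, so these 30 values are not independent. Of all tiles, 73.4% had a level of 90% or more. The comparison with flanks was not made for other CpG-dense tiles, so the dip is not shown to be particular to these windows. Window minus flank was between -33.1 and -91.7 points, and the flanks had 74.1% to 96.6% methylated reads. The dip at Kcnq1ot1 ended near the edges of the window, on few reads. The bins centred 1750 bp above and below the middle had 92.3% of 52 reads and 75% of 12 reads methylated over all libraries. The lower of these 2 bins held 1 listed CpG, and the bin centred 2250 bp below the middle had 95.5% of 66 reads. At Impact the bins centred 1250, 1750 and 2250 bp above the middle had 26.8%, 65.0% and 94.4%. At Snrpn the low level went on past the window, with 25% in the bin centred 2250 bp above the middle and 88.9% in the next. At Mest it went on below the window, with 31.7% in the bin centred 2250 bp below the middle. At Grb10 the window was above its flanks in 5 of 5 libraries, by 1.27 to 16.6 points, with reads summed over the window. Most of these reads, 11015 of 12211, lay in the bin from 12026000 to 12026499. The bin from 12025000 to 12025499 had 45.2% of 252 reads methylated, below the flanks of 79.2% to 84.3%. The coordinates of the windows were fixed, so these edges show where the dip lay relative to them.

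**Figure D4:**
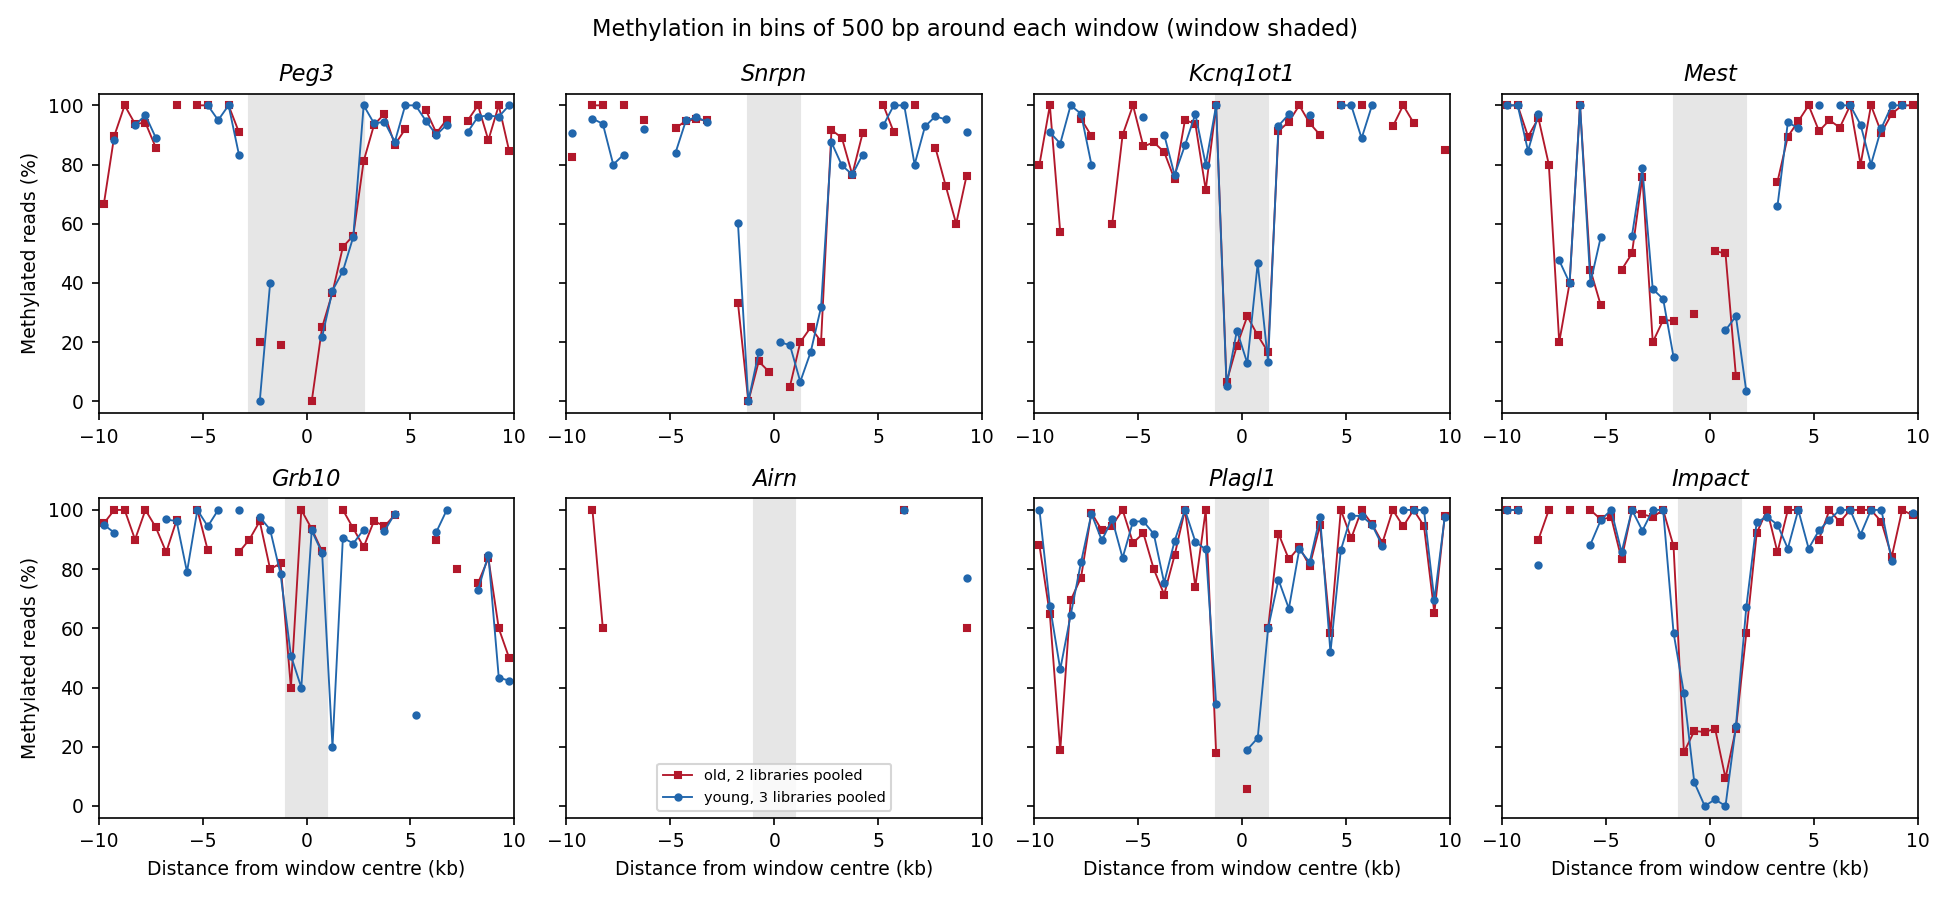
Percent of methylated reads in bins of 500 bp up to 10 kb from each window's centre (window shaded), reads pooled over the 2 old libraries and over the 3 young libraries. Lines join neighbouring bins that had listed CpGs. A dip is seen in the 6 measured windows other than Grb10, and Airn has few bins with listed CpGs.

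The windows were set against CpG-dense tiles elsewhere, since control regions are CpG-rich. Density and width were not matched, and a mean over windows was set against a median over tiles. The 5 libraries share the same windows and tiles. The sign-flip test over libraries below therefore cannot show that the windows differ from dense tiles. Tested tiles inside the windows had 91 listed CpGs at Grb10, 39 and 37 at Kcnq1ot1, and 13 and 23 at Peg3. The windows were 2001 to 5501 bp wide, against 1000 bp for a tile. With at least 45 listed CpGs in a tile there were 252 tiles elsewhere. Their median level was 28.3% and 21.9% in the old libraries, against 17.2%, 25% and 30.1% in the young ones. The mean of the 7 windows minus that median was 8.86 ± 5.82 points over the 5 libraries (exact sign-flip test, at the smallest p that 5 libraries allow). For the same 7 windows it was -30.7 and -17.4 points with at least 30 or 60 listed CpGs in a tile, so its direction turned with the minimum. For the 6 windows without Grb10 it was -0.593 points at 45 listed CpGs (exact sign-flip test, p = 0.875) and -40.1 and -26.9 points at 30 and 60. In old replicate 1, 40.1% of the dense tiles were under 10% methylated, and so were 43.3% in old replicate 2, 46.4%, 44.4% and 38.9% in young replicates 1, 2 and 3.

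Genes around the windows were taken from a list of 46 genes of the imprinted domains. The level within 1000 bp of each end of the gene was measured, and the less methylated end was used. Of these, 44 had a value and 2 were not matched by symbol. With both ends counted, the median level of the lower end was 36.4%, against 56.3% for all genes. All genes were the 33280 of 34614 protein-coding and long non-coding RNA genes with a value. Of the list 61.4% lay under 50%, against 46.7% of all genes. Some of these ends overlap the windows themselves. With those ends left out, the list had a median of 48.9%, and 50% of it lay under 50%. Some genes then had a single end left, so these values are not measured like those of all genes. Near Snrpn the lowest was Ube3a, the ubiquitin ligase gene of Angelman syndrome, with 0.546% of 183 reads, none of them in young replicates 2 and 3. The next outside the window was Magel2, with 14.9% of 1004 reads. Magel2 had 9.14% and 15.6% in old sperm, against 7.28%, 10.9% and 24.9% in young sperm, so the groups overlapped. Near Kcnq1ot1 the lowest were Cd81, a tetraspanin gene, with 0% of 10 reads, and Phlda2, which restrains placental growth, with 4% of 50 reads. The reads at Cd81 came from old replicate 1 and young replicate 1, and those at Phlda2 from old replicate 2 and young replicate 3. Near Mest they were the zinc finger gene Klf14, with 9.16% of 415 reads, and Copg2, which encodes a coat protein of transport vesicles, with 24.8% of 427 reads. Klf14 had 15.8% and 8.48% in old sperm, against 20.4%, 2.30% and 5.26% in young sperm, so the groups overlapped. Near Airn the lowest was the organic cation transporter gene Slc22a3, with 32.8% of 131 reads. By library it had 33.3% and 74.3% in old sperm, against 0% of 55 reads in young replicate 1 and 100% of 5 reads in young replicate 2. Young replicate 3 had no reads there. Near Plagl1 the lowest was Phactr2, with 0% of 15 reads, all in the old libraries. Near Impact it was Cabyr, a sperm tail protein gene, with 35.3% of 51 reads, none of them in young replicates 2 and 3. After Cabyr came Osbpl1a, with 46.3% of 147 reads.

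Control regions of the opposite kind and cell type markers were read in the same way. The H19 control region, which is methylated on the paternal allele, had 73.6% and 92.9% in old sperm, against 88.0% and 62.2% in young replicates 1 and 3, on 50 to 99 reads, and young replicate 2 had no listed CpG there. The Dlk1-Meg3 control region had no listed CpG in the 5 libraries. Of 5 sperm genes, 4 had a start in the table, and the pooled level there was 95.7% at Prm1, 98.7% at Prm2, 52.3% at Tnp1 and 79.2% at Acrv1. Of 6 genes of other cells, 5 had one, with 86.9% at the leukocyte gene Ptprc, 64.6% at the T cell gene Cd3e, 84.5% and 90.9% at the epididymal genes Defb42 and Lcn5, and 12.5% of 16 reads at the epithelial gene Krt8. Odf1 and Cdh1 had no start in the table. The part of other cells in the window levels was not tested.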

How the data were processed

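Reads were processed with Bismark 0.16.3, Trim Galore 0.4.3 and methylKit 1.4.0 on build mm10 (GRCm38), per the submitters' processing notes. For settings and removal of duplicates, the sources used here say nothing. The authors' deposited files give, per the file headers, a count of reads (coverage) for each cytosine, and the percent of those reads that were C and T. Each listed cytosine had at least 5 reads. Percent times coverage gave whole methylated reads, which were summed over both strands and over each window of fixed coordinates. Intervals are exact binomial (95%) and cover counting error only: reads of one molecule cover several CpGs. Window levels of the groups were tested by exact permutation of the libraries (two-sided).

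Across the genome, a quasi-binomial logistic model with a dispersion moderated as in limma was fitted to tiles of 1000 bp on the autosomes and sex chromosomes (numpy 2.4.6, pandas 2.3.3, scipy 1.17.1, Python 3.11.15), and limma 3.58.1 in R 4.3.3 was the alternative on log2 odds. The model was also run on data simulated with a dispersion of 1.42 for all tiles, and no result here rests on that run. Alternatives covered read minimum, set and weighting of CpGs, coverage limit, window edges, tile width, test, replicate number and each library left out. Counting each stretch of CpGs with gaps of at most 100 bp once, and leaving out Grb10, were chosen after seeing the data.

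Windows, members and gene lists were chosen with earlier results of these data known. All 8 windows are named, and by rule the tile with the smallest p per window, the CpG with the highest level among those in all libraries, and up to 2 domain genes per window with the lowest end. Exons and introns were not analysed here. The Impact promoter was not used here.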

Additional observations from a re-analysis of the deposited data

How the results depend on the processing

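No window was called under any alternative run. The count of called tiles was 0 in most settings; with CpGs of the highest coverage left out it was 1, and with a binomial model without extra dispersion 2357. It was 0 with each young library left out and with the replicate block. Same-numbered libraries deviated together with correlations of 0.00126 and -0.0185. The deviations of the old libraries mirror each other, so these values do not settle whether the numbers pair libraries. The mean difference over windows changed sign without old replicate 2 or young replicate 2, with a range of -3.04 to 2.94 points over the libraries left out, and was -0.0154 points without Grb10. Single windows changed sign as follows. Impact was 9.72 points over CpGs in all libraries, 2.09 as a mean over CpGs and 9.14 without young replicate 3. Mest was -5.36 with windows shortened by 500 bp at both ends and -3.30 without old replicate 2. With stretches counted once, Snrpn was 0.460 and Grb10 -7.54. Grb10 was -2.04 without old replicate 1 and -2.61 without young replicate 2. Kcnq1ot1 was -7.76 without young replicate 1, and Peg3 -0.933 without young replicate 2. At the other end of the libraries left out, the difference was 14.2 at Peg3, 9.86 at Kcnq1ot1, 22.0 at Mest, 4.02 at Grb10 and -6.86 at Impact. In the fits of these differences the adjusted p was 0.882 at Peg3, Kcnq1ot1 and Grb10, without young replicate 3. At Impact it was 0.990, without young replicate 2, and Mest had too few reads for the fit. Where a young library left out changed the sign, it was 0.979 at Peg3 and 0.959 at Grb10 (both without young replicate 2). It was 0.882 at Impact without young replicate 3 and 1 at Kcnq1ot1 without young replicate 1. Against CpG-dense tiles the difference was -30.7 and -17.4 points at 30 and 60 listed CpGs, and without Grb10 -0.593, -40.1 and -26.9 points at 45, 30 and 60. The cause of these changes was not tested. Plagl1 stayed negative in each alternative that gave it a value, from -13.6 to -9.10 points. A minimum of 10 reads, and CpGs in all 5 libraries, left some windows without CpGs in some library and gave no value for those. Depth limits every window but Grb10. Outside Grb10, 48.8% of the values of single CpGs rested on exactly 5 reads and 10.2% on 10 or more, and neighbours can share reads. Peg3 was deeper, with 29.0% of its values on 10 reads or more.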
